A study of Mus musculus with 6 samples.

Results

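The enzymes that place and remove acetyl and methyl groups on histones, and methyl groups on DNA, were followed in the hippocampus of aged and young mice. The set was drawn by name, as every gene whose symbol is Hdac, Sirt, Kat, Kdm, Kmt, Dnmt or Tet followed by a number and at most 1 letter, leaving out Kdm5c, Kdm5d and Kdm6a. It held 55 of the 16703 genes measured, made up of 11 Hdac, 7 Sirt, 8 Kat, 15 Kdm, 8 Kmt, 3 Dnmt and 3 Tet genes. The name rule takes in sirtuins that act outside the nucleus, and leaves out many enzymes of the same kind under other names, which are described at the end. The name rule uses no measured value, though it was set with earlier results of these data known.

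Acetyl groups put on histone tails by lysine acetyltransferases (Kat) loosen chromatin and go with active transcription, and the zinc-dependent deacetylases (Hdac) and the NAD-dependent sirtuins (Sirt) take them off. Lysine methyltransferases (Kmt) and demethylases (Kdm) write and erase methyl marks, whose meaning for a gene depends on the histone residue that carries them. DNA methyltransferases (Dnmt) methylate cytosine, and Tet dioxygenases oxidise the methyl group, which is then lost by dilution or base excision. In the hippocampus these enzymes are known for their part in activity-dependent transcription and memory formation, and several of them, Hdac2 and Sirt1 among them, have long been studied in brain ageing.

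RNA was sequenced from the hippocampi of 3 aged (20-month-old) and 3 young (3-month-old) male C57BL/6 mice, an inbred strain without any genetic change or treatment, with 1 library per mouse. The methods of the study give the age of the young mice in weeks as 12, and state that the replicates of each age were picked with a qPCR assay done earlier, without the criterion. The comparison asks how transcript levels differ between old and young hippocampus. Values are CPM, counts scaled to a common library total, computed from deposited values from which 1 factor of unwanted variation had already been taken out, so that their totals, 15238190 to 17548247 adjusted counts per library, are not the sequencing depth, and the depth behind each value is not known.

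The tissue label was checked against markers of the cell types a hippocampus holds. The 12 genes listed for excitatory neurons include the general neuronal genes Syt1, Snap25 and Rbfox3. The list summed to 10333 to 10629 CPM in aged mice and 10457 to 10836 CPM in young mice. Of the 12 genes, 3 had positive and 9 negative log2 fold changes, so the sum joins genes of either direction. Such a sum does not set the hippocampus apart from other brain tissue. None of the markers measured in any list was at 0. Tissue make-up was uneven between libraries. The 18 markers of choroid plexus, which lines the ventricles beside the hippocampus, summed to 3318, 691 and 963 CPM in aged mice 1, 2 and 3, against 3501 to 4038 CPM in young mice, and 13 of the 18 were lower with age. Microglial markers were higher with age for 9 of 14 genes, with sums of 665 to 688 CPM in aged mice and 501 to 511 CPM in young mice. Mature oligodendrocyte markers were higher for 5 of 15 genes, with sums of 7257 to 8406 CPM in aged mice and 6634 to 7277 CPM in young mice. Aged mice 2 and 3 were also closer to each other than counting noise allows, with a mean squared difference of 0.562 times that noise over 6579 genes of 50 to 500 adjusted counts (1.42 to 2.96 times for the other replicate pairs). The factor taken out lies mainly between these libraries, so they were kept as separate samples, and results with their mean as 1 sample are given with the other alternatives.

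No gene of the 55 passed the test for a difference between aged and young hippocampus at an adjusted p under 0.05 (limma, Benjamini-Hochberg adjustment over 16703 genes), where 1.98% of all genes did, 1.20% higher and 0.784% lower with age. The lowest adjusted p was 0.12, for Kdm7a. At an unadjusted p under 0.05 in limma, 1 of the 55 genes was higher and 6 were lower, where 14.9% of all genes reached it, 8.0% higher and 6.87% lower. Of the 55 genes, 12 had no overlap between the aged and the young values, 4 higher and 8 lower with age, where 27.2% of all genes had none, 14.5% higher and 12.7% lower. In bulk tissue, fewer cells of a type and less RNA per cell cannot be told apart.

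The differences were small. The log2 fold changes of aged over young ran from -0.24 to 0.23, with a median size of 0.059 without regard to sign (0.10 for all genes). The sign was negative for 38 genes and positive for 17, with a median of -0.025, while 48.6% of all genes were negative with a median of 0.005. The deviation of the 55 genes from their own means had a median of -0.008, -0.021 and -0.012 on the log2 scale in aged mice 1, 2 and 3, against 0.002, 0.034 and 0.015 in young mice 1, 2 and 3. Each of the young mice was thus above each of the aged mice on this scale. Young mouse 1 and aged mouse 1 were nearer to each other than the SD of this median over mice of the same age, 0.012. The same median was not taken for other sets of genes, so how often a set shows no overlap is not known.

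The data put bounds on what may have been missed. The 95% interval of the fold change lay within 1.5-fold either way for 52 of the 55 genes, a share that was 72.2% among all genes. It lay within 1.2-fold for 37 of them. The exceptions to the 1.5-fold bound were Kdm8, Kdm4d and Dnmt3b, which were among the least abundant genes of the set. A call would have needed an estimated log2 fold change of 0.26 in the median gene of the set, from 0.18 for the most precise to 1.46 for the least. Smaller estimates could not be called. This is a cutoff on the estimate, so true differences of that size or somewhat above it could also have been missed. The genes of the set were measured at a median of 50.1 CPM (19.0 CPM for all genes), and their median standard error was 0.065 on the log2 scale (0.10 for all genes). These bounds rest on the trended variances of the main fit (12.3 prior and 3 residual degrees of freedom). Without the trend, the unadjusted limma p went from 0.0083 to 0.083 for Hdac11 and from 0.0048 to 0.068 for Kdm7a. For Dnmt3b it went from 0.65 to 0.56. Intervals were not computed in that fit.

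**Figure D1:**
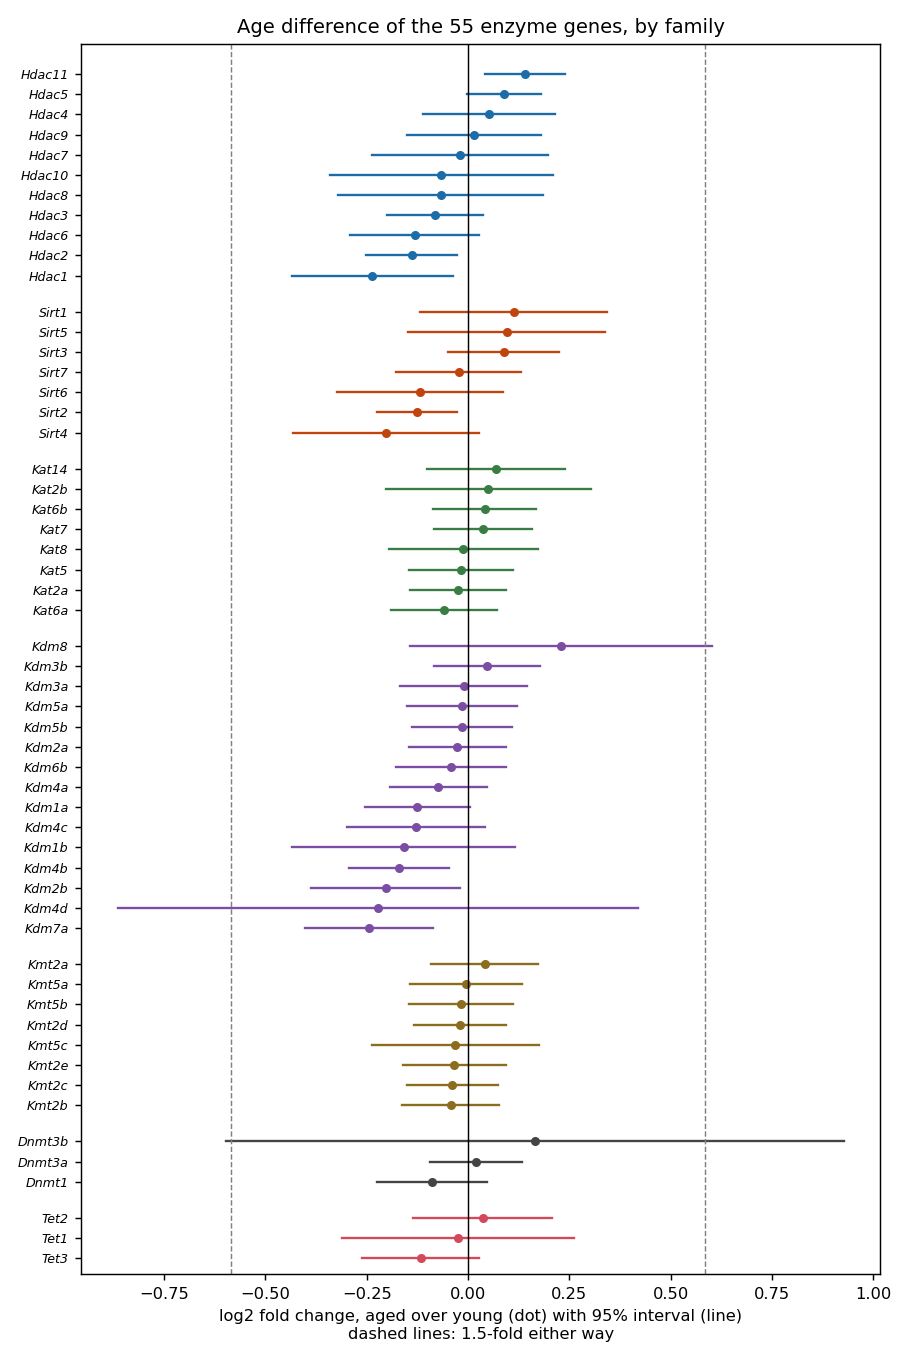
Log2 fold change of aged over young (horizontal axis) for the 55 enzyme genes (vertical axis, by family), with dots for the limma estimate and lines for its 95% interval; dashed lines mark 1.5-fold either way. The dots lie between -0.24 and 0.23, and 52 of the 55 intervals stay within the dashed lines, all but those of Kdm8, Kdm4d and Dnmt3b.

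Among the zinc-dependent deacetylases, the class I enzymes Hdac1, Hdac2, Hdac3 and Hdac8 had negative fold changes, with intervals that spanned 0 for Hdac3 and Hdac8. Hdac1, Hdac2 and Hdac3 sit in nuclear corepressor complexes. Hdac2, a deacetylase prominent in mature neurons and a known brake on memory formation in mice, stood at 75.7, 74.3 and 75.6 CPM in aged mice 1, 2 and 3, against 81.0, 84.7 and 82.8 CPM in young mice 1, 2 and 3. The aged and young values did not overlap, and the spread within each age was narrow. The log2 fold change was -0.14 with a standard error of 0.053 and a limma adjusted p of 0.22. Hdac1, its close paralogue in the same complexes, stood at 31.0, 24.3 and 27.1 CPM in aged mice, against 30.9, 34.5 and 31.3 CPM in young mice. Aged mouse 1 lay at the level of the young mice and only aged mice 2 and 3 lay below it. The log2 fold change was -0.24 with a standard error of 0.093 and a limma adjusted p of 0.24.

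The libraries in which Hdac1 was low were those in which choroid plexus markers were low, at 691 and 963 CPM in aged mice 2 and 3, against 3318 CPM in aged mouse 1. With the level of 5 choroid plexus genes as a covariate, which itself correlated with age at -0.80 over the 6 libraries, the log2 fold change of Hdac1 was -0.007 (limma adjusted p 1.0, against 0.14 to 1.0 over 17 alternatives). Hdac2 was at -0.13 in that fit, with a limma adjusted p of 0.73, against 0.074 to 0.73 over 17 alternatives. The part of choroid plexus in the Hdac1 values was not tested.

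Hdac3, the catalytic subunit of the NCoR and SMRT corepressor complexes, also had no overlap, with 72.2, 73.5 and 74.8 CPM in aged mice, against 75.7, 81.3 and 76.4 CPM in young mice. Its log2 fold change of -0.08 had an interval of -0.20 to 0.04. Hdac8, which removes acetyl groups from cohesin, gave -0.07 with an interval of -0.32 to 0.19.

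Hdac11, the sole class IV deacetylase and an enzyme with strong activity on long-chain acyl groups, was the most abundant deacetylase per transcript length. It stood at 229, 243 and 234 CPM in aged mice, against 215, 204 and 222 CPM in young mice. Every aged value lay above every young value. The log2 fold change was 0.14 with a standard error of 0.046 and a limma adjusted p of 0.15. Hdac11 is made by oligodendrocytes as well as neurons in the mouse brain, and the summed oligodendrocyte markers were 7257 to 8406 CPM in aged mice and 6634 to 7277 CPM in young mice. The part of these cells in the Hdac11 values was not tested.

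The class IIa enzymes shuttle between nucleus and cytoplasm with neuronal activity and have little deacetylase activity of their own. Of these, Hdac5 stood at 191, 187 and 188 CPM in aged mice, against 177, 175 and 180.4 CPM in young mice, with no overlap. Its log2 fold change was 0.09 with an interval of -0.003 to 0.18 and a limma adjusted p of 0.35. Hdac4, Hdac7 and Hdac9 gave 0.05, -0.02 and 0.01. In class IIb, the tubulin deacetylase Hdac6 gave -0.13 and the polyamine deacetylase Hdac10 gave -0.07, with overlapping values in both. Over the 11 Hdac genes the median log2 fold change was -0.07, with 4 positive and 7 negative.

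**Figure D2:**
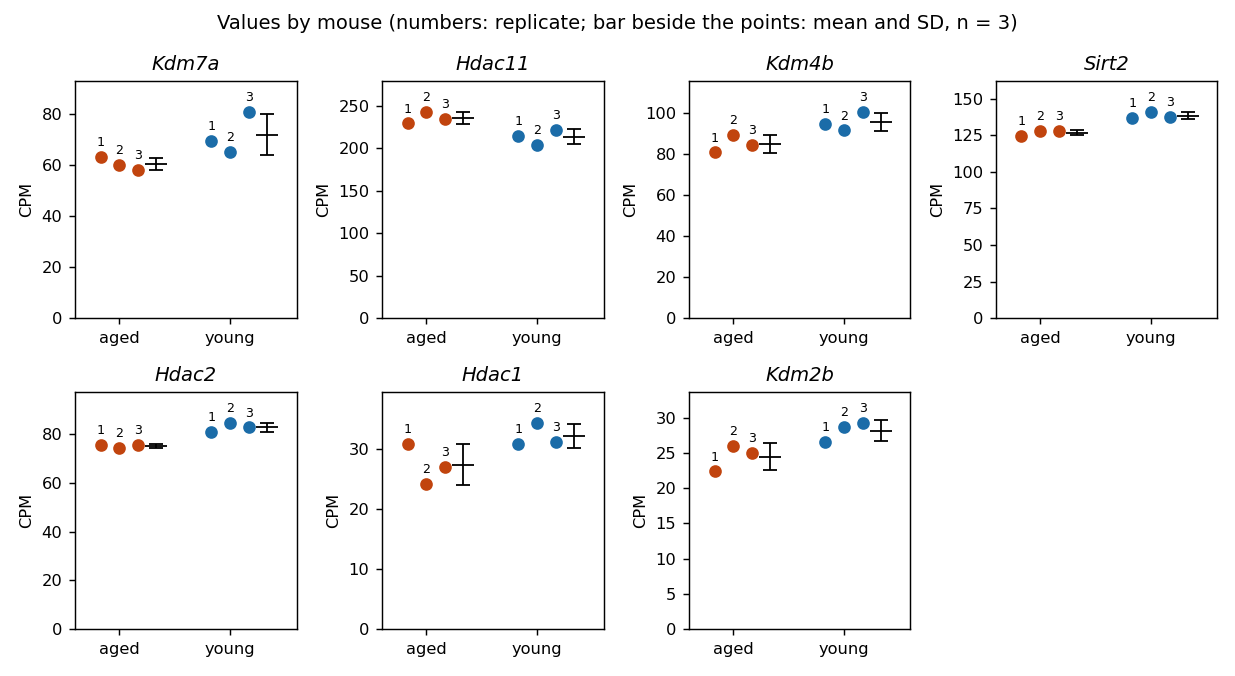
CPM (vertical axes, from 0) in each aged and young mouse for the 7 enzyme genes with an unadjusted limma p under 0.05; points are mice, numbered by replicate, and the bar beside them is the mean with its SD (n = 3). Aged and young points are apart for all of these genes but Hdac1, where aged mouse 1 lies with the young mice, and the young mice vary most for Kdm7a relative to the mean.

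The 7 sirtuins differ in where they work. Sirt2, a cytoplasmic deacetylase of tubulin that is enriched in oligodendrocytes and myelin, stood at 125, 128 and 128 CPM in aged mice, against 137, 141 and 137 CPM in young mice. All aged values were below all young ones. The log2 fold change was -0.13 with a standard error of 0.046 and a limma adjusted p of 0.21. Its direction was opposite to that of the summed oligodendrocyte markers given above. Sirt4, a mitochondrial sirtuin, stood at 16.2, 17.4 and 18.4 CPM in aged mice, against 17.8, 23.0 and 19.4 CPM in young mice. Its values overlapped, and its log2 fold change was -0.20 with an interval of -0.43 to 0.03.

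The other mitochondrial sirtuins had higher values in aged mice without overlap. Sirt3, the main mitochondrial deacetylase, had 54.8, 49.5 and 50.6 CPM in aged mice, against 48.9, 47.4 and 49.3 CPM in young mice. The margin between the nearest aged and young mouse was small, and the log2 fold change of 0.09 had an interval of -0.05 to 0.23. Sirt5, which removes succinyl and malonyl groups, had 11.2, 11.2 and 11.4 CPM in aged mice, against 10.6, 10.9 and 10.3 CPM in young mice, with a log2 fold change of 0.10 and an interval of -0.15 to 0.34.

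Of the nuclear sirtuins, Sirt1, which deacetylates transcription factors as well as histones, stood at 18.4, 15.7 and 17.5 CPM in aged mice, against 15.2, 17.8 and 14.8 CPM in young mice. The values overlapped, and the log2 fold change of 0.11 had an interval of -0.12 to 0.34. Sirt6, a deacetylase of histone H3 with a role in DNA repair, gave -0.12 with an interval of -0.32 to 0.09. The nucleolar Sirt7 gave -0.02 with an interval of -0.18 to 0.13. Over the 7 sirtuins the median was -0.02, with 3 positive and 4 negative.

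The 8 acetyltransferases were evenly split in direction, with 4 positive and 4 negative log2 fold changes between -0.06 and 0.07, a median of 0.01, and overlapping values in each. Kat6a, the MYST-family acetyltransferase also known as MOZ, had 65.9, 65.5 and 63.4 CPM in aged mice, against 69.4, 63.1 and 70.7 CPM in young mice. Kat14, a subunit of the ATAC complex, had 30.2, 30.8 and 31.5 CPM in aged mice, against 26.8, 30.4 and 31.1 CPM in young mice. Their log2 fold changes were -0.06 and 0.07, with limma adjusted p of 0.71 and 0.75. Kat6b, the paralogue of Kat6a, gave 0.04. Kat2a and Kat2b, alternative catalytic subunits of the SAGA complex, gave -0.02 and 0.05. Kat5, Kat7 and Kat8, the enzymes of the TIP60, HBO1 and MOF complexes, gave -0.02, 0.04 and -0.01.

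Among the lysine demethylases, 5 of the 15 Kdm genes were lower with age without overlap, where 12.7% of all genes were. Over all 55 enzyme genes 8 were. The Hdac genes had 2, the sirtuins 1, and the Kat, Kmt, Dnmt and Tet genes 0 each. The Kdm count is thus the highest of 7 families, and it was not tested. Limma called 0 of the 15. Of 8 genes listed as lysine demethylases under other names, 1 was lower without overlap. Of 15 Kdm genes, 13 had a negative log2 fold change (48.6% of all genes), and the median was -0.07. Kdm7a, a Jumonji-domain enzyme that erases methyl groups from lysines of histone H3 linked to silencing, stood at 63.2, 60.1 and 58.3 CPM in aged mice, against 69.6, 65.3 and 80.9 CPM in young mice. The aged values were close together, and the young mean rested in part on young mouse 3. The log2 fold change was -0.24 with a standard error of 0.074, an interval of -0.40 to -0.09 and a limma adjusted p of 0.12. It was the sole gene of the set that any alternative called: without young replicate 2 the log2 fold change was -0.32 with a limma adjusted p of 0.024, against 0.024 to 0.88 over 17 alternatives. Without young replicate 3 it was -0.155 and without aged replicate 3 it was -0.06, neither of them called. With the choroid plexus covariate it was -0.13.

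Kdm4b, a demethylase of trimethylated lysines of histone H3, stood at 80.9, 89.5 and 84.7 CPM in aged mice, against 94.8, 91.6 and 101 CPM in young mice. The log2 fold change was -0.17 with a standard error of 0.058 and a limma adjusted p of 0.17. The values did not overlap, with aged mouse 2 close below young mouse 2. Its paralogues Kdm4a and Kdm4c also had no overlap. Kdm4a had 59.8, 59.1 and 59.3 CPM in aged mice, against 63.4, 62.6 and 61.6 CPM in young mice, and Kdm4c had 25.4, 27.2 and 27.3 CPM in aged mice, against 27.4, 30.4 and 29.6 CPM in young mice. Their log2 fold changes of -0.07 and -0.13 had intervals of -0.19 to 0.05 and -0.30 to 0.04. The fourth paralogue, Kdm4d, was near 1 CPM (1.09 ± 0.080 in aged mice and 1.31 ± 0.257 in young mice, SD, n = 3 each), too low for a bound within 1.5-fold.

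Kdm2b, which reads unmethylated CpG islands and brings a Polycomb complex to them, stood at 22.4, 26.0 and 25.1 CPM in aged mice, against 26.5, 28.7 and 29.3 CPM in young mice. All aged values were lower, and the log2 fold change was -0.20 with a standard error of 0.086 and a limma adjusted p of 0.28. It went to -0.37 with the choroid plexus covariate and to -0.135 without aged replicate 1, and no alternative called it. Its paralogue Kdm2a gave -0.03 with an interval of -0.15 to 0.09.

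The flavin-dependent demethylases of the LSD type gave -0.12 for Kdm1a, the REST and CoREST partner, with an interval of -0.25 to 0.004, and -0.16 for Kdm1b with an interval of -0.43 to 0.12. Kdm5a and Kdm5b, erasers of the active promoter mark on histone H3, gave -0.01 each, and Kdm6b, an eraser of the Polycomb mark, gave -0.04. Kdm3a and Kdm3b gave -0.01 and 0.05. Kdm8 had the highest log2 fold change of the set, 0.23, with an interval of -0.14 to 0.60, at 5.0 ± 0.27 CPM in aged mice and 4.26 ± 0.473 CPM in young mice (SD, n = 3 each).

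**Figure D3:**
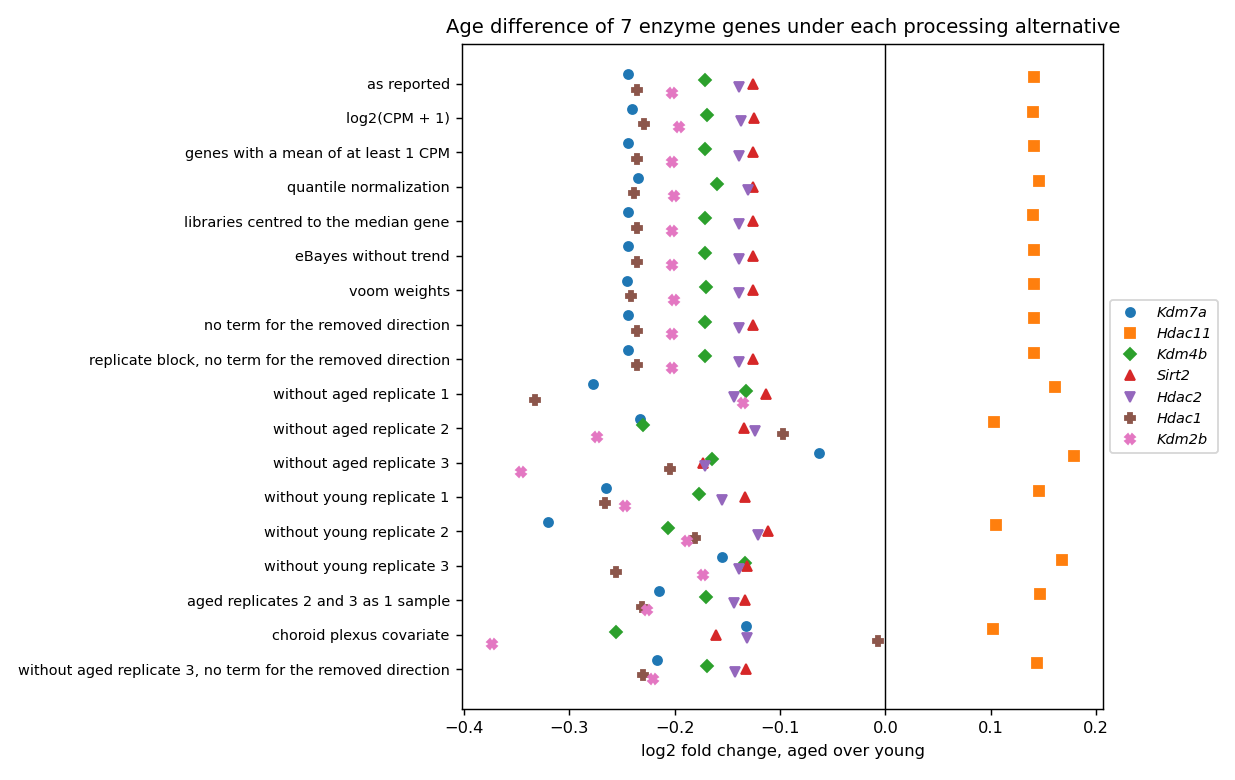
Log2 fold change of aged over young (horizontal axis) for the 7 enzyme genes with an unadjusted limma p under 0.05, under each processing alternative (vertical axis); each symbol is a gene. The genes keep their sign throughout, with Hdac1 at -0.007 under the choroid plexus covariate and Kdm7a between -0.32 and -0.06.

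The lysine methyltransferases had the smallest median size of difference of the 7 families, 0.033 on the log2 scale. The 8 Kmt genes had log2 fold changes of -0.04 to 0.04, 7 of them negative, and each had overlapping values. Kmt2b, a methyltransferase of the COMPASS-like complexes needed in mouse dentate gyrus neurons for memory, had 76.5, 82.2 and 82.0 CPM in aged mice, against 80.9, 85.7 and 81.2 CPM in young mice. Kmt2c, of another such complex that acts at enhancers, had 94.8, 89.6 and 93.1 CPM in aged mice, against 92.7, 98.7 and 93.7 CPM in young mice. Their log2 fold changes were -0.04 each, with limma adjusted p of 0.78 and 0.79 and intervals of -0.16 to 0.08 and -0.15 to 0.07. Kmt2a, Kmt2d and Kmt2e gave 0.04, -0.02 and -0.03. Kmt5a, Kmt5b and Kmt5c, which methylate histone H4, gave -0.004, -0.02 and -0.03.

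Among enzymes of DNA methylation, Dnmt1, which copies methylation onto the new strand after replication and is also kept up in neurons, had 46.0, 49.9 and 48.3 CPM in aged mice, against 52.7, 50.9 and 49.7 CPM in young mice. The values overlapped by a margin within the spread of either age, and the log2 fold change of -0.09 had an interval of -0.22 to 0.05 and a limma adjusted p of 0.57. Dnmt3a, the main de novo enzyme of neurons, had 79.5, 77.7 and 79.0 CPM in aged mice, against 75.1, 78.2 and 79.6 CPM in young mice, with a log2 fold change of 0.02 and an interval of -0.09 to 0.13. Its level was thus bounded more tightly than that of most genes. Dnmt3b, the other de novo enzyme, was the least abundant gene of the set, with 0.817, 0.969 and 0.939 CPM in aged mice, against 1.12, 0.849 and 0.520 CPM in young mice. Its interval of -0.60 to 0.93 leaves its direction unknown.

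The Tet genes overlapped between the ages in each case. Tet3, the most abundant, had 62.6, 53.2 and 57.1 CPM in aged mice, against 61.6, 65.1 and 60.4 CPM in young mice, with a log2 fold change of -0.12, an interval of -0.26 to 0.03 and a limma adjusted p of 0.46. As for Hdac1, aged mouse 1 was with the young mice and aged mice 2 and 3 were below them. With the choroid plexus covariate, which correlated with age at -0.80, the log2 fold change of Tet3 was 0.04. The part of choroid plexus in the Tet3 values was not tested. Tet2, whose loss in the adult mouse hippocampus is known to reduce neurogenesis, had 30.7, 34.0 and 34.0 CPM in aged mice, against 32.5, 34.2 and 29.6 CPM in young mice, with a log2 fold change of 0.04 and an interval of -0.13 to 0.21. Tet1 gave -0.02 with an interval of -0.31 to 0.26.

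Levels of different genes were set side by side as CPM per kb of the longest protein-coding transcript, averaged over the 6 mice. Hdac11 led the deacetylases at 84.7, with 76.9 to 91.5 over the mice, above Hdac5 at 37.7 and Hdac3 at 37.2, whose ranges overlapped. Hdac2 at 24.3 was above Hdac1 at 14.6 in every mouse, and Hdac9 was lowest at 4.85. Sirt2 led the sirtuins at 62.6, above Sirt3 at 31.2 and Sirt7 at 22.4, and Sirt1 was lowest at 3.74, with no overlap with Sirt5 at 4.51. Among acetyltransferases Kat5, Kat2a and Kat7 were close together at 25.7, 24.2 and 23.6, and Kat2b was lowest at 4.42. Among demethylases Kdm1a at 21.4 and Kdm4b at 19.7 overlapped, and Kdm4d was lowest at 0.444. Kmt5a led the methyltransferases at 17.7, and Kmt5c, Kmt2c and Kmt2d, at 6.20, 6.26 and 6.91, were lowest with overlapping ranges between neighbours. Dnmt1 at 8.45 and Dnmt3a at 8.08 overlapped and were far above Dnmt3b at 0.201. Tet3 at 5.50 was above Tet2 at 3.54, which was above Tet1 at 0.668, with no overlap at either step. A gene that uses a shorter transcript than the longest annotated would be placed too low in this order.

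**Figure D4:**
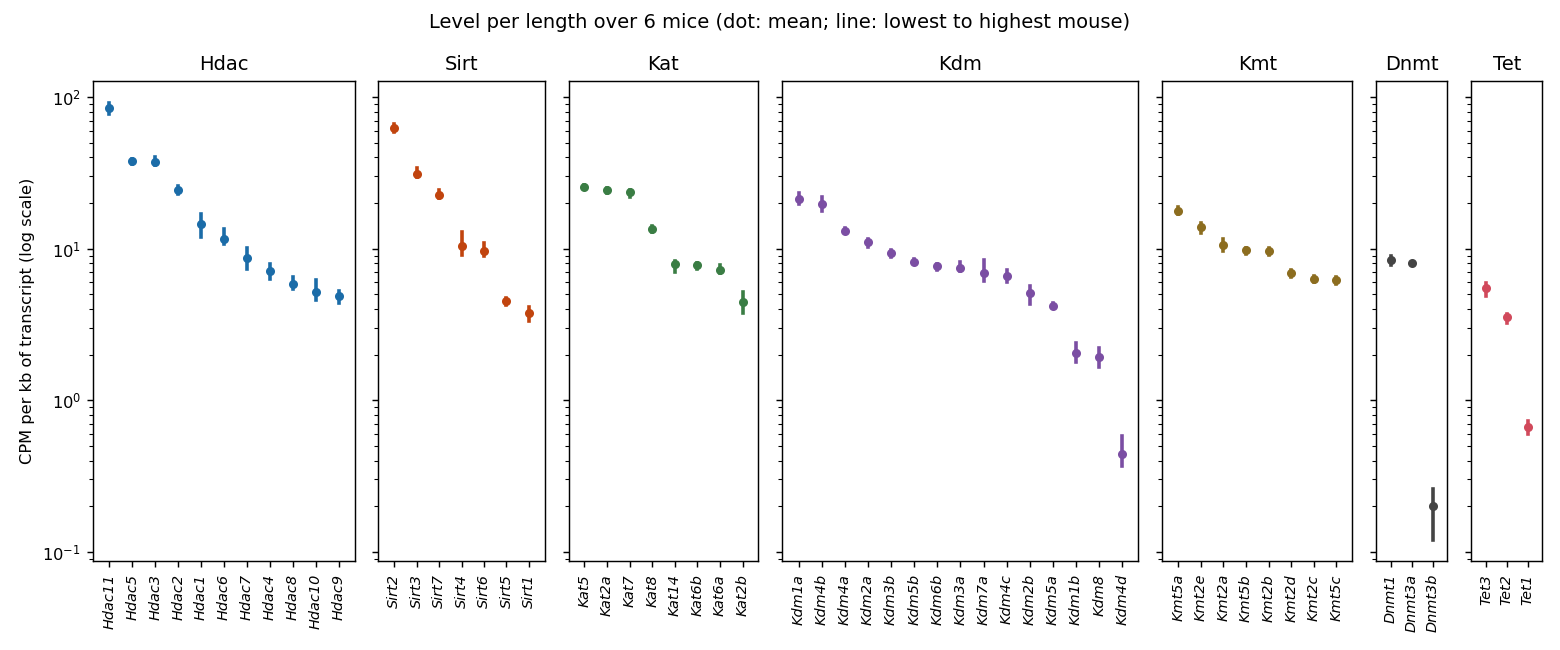
Level of each enzyme gene in CPM per kb of its longest protein-coding transcript (vertical axis, log scale) by family (panels, genes in falling order); dots are means over the 6 mice and lines run from the lowest to the highest mouse. Hdac11 at 84.7 and Sirt2 at 62.6 stand above the rest of their families, and Dnmt3b at 0.201 is the lowest gene.

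Enzymes and partners under other names were counted from lists of their roles. Over 152 measured genes of 10 lists, limma called 1 lower and 0 higher at an adjusted p under 0.05, where 1.98% of all genes were called. At an unadjusted p under 0.05 there were 7 higher and 14 lower, a share near the 14.9% of all genes, and the median log2 fold change was -0.026. The gene called was Setd7, a monomethyltransferase of histone H3 and of other proteins. Setd7 stood at 180.2, 171 and 175 CPM in aged mice, against 196, 207 and 211 CPM in young mice, with no overlap. Its log2 fold change was -0.22 with a standard error of 0.047 and a limma adjusted p of 0.024. With each library left out the log2 fold change ran from -0.254 to -0.193, and the call was lost without aged replicate 1, 2 or 3 and without young replicate 1 or 3 (adjusted p of 0.054, 0.16, 0.29, 0.059 and 0.07). It was also lost without the variance trend, at the same fold change (adjusted p 0.35), and with the choroid plexus covariate (-0.17, adjusted p 0.55, against 0.015 to 0.55 over 17 alternatives).

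Of the lists of writers, the 23 genes listed as other histone methyltransferases, not all of which are known to act on histones, had a median of -0.025. The 12 measured acetyltransferases of other names had a median of -0.020, with Taf1 of the TFIID complex at -0.18 (adjusted p 0.14) and Ncoa2, a nuclear receptor coactivator, at 0.14 (adjusted p 0.26) closest to a call in limma. The 9 arginine methyltransferases had a median of -0.014, and Prmt9 and Prmt3, the closest to a call, gave -0.17 and 0.07. Under the erasers, 8 genes listed as demethylases of other names had a median of -0.074 with 7 negative. Jarid2, 1 of the 7, is also counted below as a PRC2 subunit. Phf8 at -0.13 and the hydroxylase Jmjd6 at -0.14 were closest to a call (limma adjusted p 0.50 and 0.51).

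Of the complexes that hold these enzymes, the 12 subunits of Polycomb repressive complex PRC2 had a median of 0.002, with the accessory subunits Epop at 0.27 (adjusted p 0.095) and Phf1 at 0.16 (adjusted p 0.26) closest to a call in limma. The 11 measured shared subunits of the COMPASS methyltransferase complexes had a median of -0.057 with 9 negative, and Cxxc1 and Rbbp5 gave -0.16 and -0.15 (limma adjusted p 0.23 and 0.25). The 35 subunits of the Hdac corepressor complexes had a median of -0.032, with Ncor1 at -0.11 and Mbd3 at 0.10 (limma adjusted p 0.28 and 0.35). The 16 readers and base excision factors of DNA methylation had a median of 0.007, with the glycosylase Tdg at -0.21 and the methyl-CpG binding Zbtb38 at 0.15 (limma adjusted p 0.21 and 0.33).

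Of the genes that supply the cofactors, the 13 measured genes of NAD supply and use had a median of -0.064, with the neuronal NAD synthase Nmnat2 at 0.12 and the NAD-consuming Cd38 at -0.38 (limma adjusted p 0.21 and 0.23). The 18 measured genes of methyl donor and acetyl-CoA supply had a median of -0.005 and 5 genes at an unadjusted p under 0.05, all 5 lower with age, where 6.87% of all genes were lower and 8.0% higher at that p. Idh1, which makes the 2-oxoglutarate that Jumonji demethylases and Tet enzymes need, was the closest of them, at 38.8, 37.4 and 37.6 CPM in aged mice, against 45.9, 45.1 and 45.0 CPM in young mice. Its log2 fold change was -0.26 with a standard error of 0.064 and a limma adjusted p of 0.055. Shmt2 of one-carbon metabolism gave -0.28 (limma adjusted p 0.14).

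The remaining marker lists were counted in limma in the same way. Immature neuron markers were lower for 3 of 12 genes, with sums of 508 to 527 CPM in aged mice and 548 to 605 CPM in young mice, and dividing cell markers for 1 of the 13 measured of 18 listed, with 60.0 to 62.1 CPM in aged mice and 61.2 to 68.0 CPM in young mice. Astrocyte markers were higher for 2 of 12, inhibitory neuron markers for 2 of 12, and excitatory neuron and oligodendrocyte precursor markers lower for 1 of 12 and 1 of 10. Of 12 pericyte and fibroblast markers 1 was higher and 2 were lower, and 0 of 12 endothelial markers passed (3 at an unadjusted p under 0.05). The part of these cells in the values of the 55 enzyme genes was not tested. Only choroid plexus markers were used as a covariate.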

How the data were processed

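RNA-seq of 3 aged and 3 young hippocampi was analysed, grouped by the sample labels, and the members and gene lists were chosen with earlier results of these data known. The deposited table holds a log2 CPM value per library and 16703 genes, from strand-marking libraries. The authors also deposited a log2 fold change, a log2 average expression, a likelihood ratio statistic (a score), a p-value and an FDR, none of which was used. The processing notes of the submitters list STAR 2.7.8a, edgeR 3.32.1, Trim Galore 0.6.6, R 4.05 and the build mm39, and the methods of the study name Trimmomatic, uniquely mapped reads and edgeR's likelihood ratio test with removal of unwanted variation. How genes of low expression were left out is not given in the sources used here.

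Adjusted counts were recovered from the log2 values (whole to within 3.1e-11), and CPM from them. Over 1791 genes with a mean above 2000, the libraries lacked 1 direction (spread 0.9863 times that of rounding), mainly aged replicate 2 against aged replicate 3 and nearly unrelated to age (r 0.021 over 6 libraries). The deposited log2 CPM values were fitted in limma 3.58.1 (R 4.3.3) on age and this direction, with trended variances (3 residual and 12.3 prior degrees of freedom, two-sided), and Benjamini-Hochberg adjustment ran over all genes. Calls used an adjusted p under 0.05. The removed factor came from these same libraries, so p-values may be too small. The spread behind them is what the removal left between these mice, drawn towards a trend over all genes. The steps were also run on simulated counts, with a removed factor drawn independently of age and estimated without the changed genes. That run does not show whether the p-values here are of the right size. Transcript lengths came from GENCODE vM21, matched by gene identifier for 55 of 55 genes. That annotation is of another build, so no coordinates are given.

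Values in every mouse are given for enzyme genes with an unadjusted p under 0.05 and for the 2 of smallest p in each family. Of each other list, called genes or else the 2 of smallest p are named. Other genes given by mouse (Hdac3, Hdac5, Sirt1, Sirt3, Sirt5, Kdm4a, Kdm4c, Dnmt3a) were picked after their values were seen. Alternatives were another scale, a filter, other normalizations and variance models, no term for the direction, the replicate number as a block, each library left out, aged replicates 2 and 3 as 1 sample, and a choroid plexus covariate (mean of Ttr, Folr1, Kl, Clic6 and Kcnj13). The fit without aged replicate 3 and without the direction, and all alternatives of the other chromatin genes, were added after the data had been seen.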

Additional observations from a re-analysis of the deposited data

How the results depend on the processing

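In limma, 0 of the 55 enzyme genes were called under 16 of 17 alternatives, and 0 to 1 when each library was left out, the exception being Kdm7a (-0.32) without young replicate 2. At an unadjusted p under 0.05 the alternatives gave 0 to 2 higher and 0 to 8 lower. Of 271 values of 16 named enzyme genes, 260 kept their sign and their side of the threshold. The choroid plexus covariate reversed Dnmt3b (-0.042), Kmt2c (0.000), Tet2 (-0.109) and Tet3 (0.036), and with each library left out Tet2 ran from -0.130 to 0.089, Kat14 from -0.032 to 0.108, Kat6a from -0.116 to 0.068 and Dnmt3b from -0.095 to 0.386. None of these passed the test in any fit. The median of the 55 genes ran from -0.058 to -0.013 over the libraries left out and was -0.042 with the choroid plexus covariate, negative in all 17 alternatives.

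Over all genes 200 were higher and 131 lower, 59 to 184 and 22 to 116 with each library left out, 34 and 31 with the choroid plexus covariate, 99 and 61 without aged replicate 3 and without the direction, 319 and 204 without the term, and 0 and 0 without the variance trend (1881 genes at an unadjusted p under 0.05). The cause was not tested. Among the other chromatin genes, limma called 0 lower without the trend, with the covariate, and without aged replicate 3 and the direction, 1 higher and 2 lower without the term, and 0 to 1 lower with each library left out.

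The replicate numbers pair no mice by the labels. The deviations of same-numbered aged and young mice correlated at 0.109, -0.209 and -0.415, while aged replicate 3 and young replicate 2 correlated at 0.836. The removed direction ties the libraries to each other, with weights of -0.748 for aged replicate 3 and 0.252 for young replicate 2. These correlations therefore cannot show whether mice were paired. With the replicate number as a block, 286 genes were higher and 224 lower, 2 other chromatin genes were lower, and 0 of the 55 enzyme genes were called (lowest adjusted p 0.071 in limma, with 2 higher and 8 lower at an unadjusted p under 0.05).

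The adjusted counts are not the sequencing depth, so no counting interval is given for single values, and the counting noise set beside the replicate pairs is that of the adjusted counts. With 3 mice per age and trended variances, the median enzyme gene needed an estimated log2 fold change of 0.26 for a call.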
